A study of Homo sapiens with 16 samples.

Results

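The RAS genes NRAS, HRAS, RRAS and RRAS2 were followed in HT1080, a human fibrosarcoma cell line known to carry an activating mutation of NRAS. They are 4 of the 22892 genes kept from the HiSeq expression table and of the 25606 kept from the NextSeq table, were taken by name, and were listed in both. Other RAS genes were not analysed here. Each HT1080 clone, apart from an empty-vector line, had a single copy of the XIST cDNA, the RNA that silences the inactive X chromosome, under a promoter that responds to doxycycline (DOX), at a site on 1p, 8p or 12q, and the clones also expressed the Tet repressor constitutively. The HiSeq table held 6 libraries, namely 8p with No DOX, 2 of 8p after 5 days of DOX, 1p DOX, 12q DOX, and a 1p line with the empty vector and DOX (1p vector). The NextSeq table held 4 libraries, 1p and 12q each with No DOX and after 5 days of DOX. The 1p and 8p clones came from another Tet repressor subclone than the 12q clone, so site and subclone cannot be told apart between them. DOX and the induction of XIST cannot be told apart either, since no XIST-free line was measured with and without DOX. The methods leave it possible that the 8p DOX libraries are not repeats of the same clone, and nothing states that the other libraries came from separate cultures.

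RAS proteins are small GTPases at the inner face of the plasma membrane. They are switched on by exchange factors that load GTP and switched off by GTPase activators, and in the active state they bind effectors such as the RAF kinases, the phosphoinositide 3-kinases and the exchange factors of RAL. NRAS and HRAS are classical RAS proteins, whose carriage to the membrane needs farnesylation and palmitoylation. RRAS (R-Ras) is known for its part in integrin-mediated adhesion, and RRAS2 (TC21) for transforming activity close to that of the classical RAS proteins. An activating mutation keeps the protein bound to GTP. FPKM adds up the transcripts of mutant and normal alleles, so the values below do not speak of the active protein.

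On hg18, the build of the tables, NRAS lies on chromosome 1 from 115048608 to 115061038, HRAS on chromosome 11 from 522242 to 525550, RRAS2 on chromosome 11 from 14256042 to 14342628 and RRAS on chromosome 19 from 54830364 to 54835212. NRAS is therefore the member on the chromosome arm that held the transgene in the 1p clone, though not necessarily on the same homologue, and no member lies on the chromosome of the other 2 sites.

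The sequences upstream of the start of HRAS, which had the lowest ratio of DOX to No DOX among the members in all 3 clones, and of NRAS, the mutated member, are shown to compare the letters next to the starts of both classical genes. They are the 250 bases before the RefSeq start on the minus strand (GRCh38.p14), at chr11:535577-535826 for HRAS and chr1:114716772-114717021 for NRAS, and the capitals mark the GC box GGGCGG or its reverse complement CCGCCC.
HRAS: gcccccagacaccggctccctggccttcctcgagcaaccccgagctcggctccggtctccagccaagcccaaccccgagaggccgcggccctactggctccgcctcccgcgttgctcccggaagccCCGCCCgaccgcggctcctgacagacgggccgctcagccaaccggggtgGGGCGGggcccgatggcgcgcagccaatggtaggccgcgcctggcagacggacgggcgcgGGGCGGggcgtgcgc
NRAS: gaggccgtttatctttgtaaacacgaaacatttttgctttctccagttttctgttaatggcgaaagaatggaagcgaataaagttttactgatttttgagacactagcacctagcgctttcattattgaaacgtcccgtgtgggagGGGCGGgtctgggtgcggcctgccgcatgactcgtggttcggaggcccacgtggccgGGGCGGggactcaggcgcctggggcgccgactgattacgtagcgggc
The HRAS stretch had 77.2 % G and C and 3 of these boxes, 2 as GGGCGG and 1 as CCGCCC. The NRAS stretch had 54.4 % G and C and 2 boxes, both as GGGCGG, against a median of 58 % G and C over the 35116 upstream stretches of the RefSeq table used. A box was found in 42.6 % of these stretches, so holding one is common. RRAS2 had 4 listed starts, of which 2 had no box, and the G and C content before them ran from 40 to 77.2 %. These counts describe letters and say nothing about binding.

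The cells carried the markers of a mesenchymal tumour in each library. All 7 fibrosarcoma markers were detected, with a lowest value of 19.0 FPKM. Of 7 markers of other cell types, PTPRC was at 0 in all 10 libraries, and the endothelial cadherin CDH5 was the exception, at 5.44 to 7.06 FPKM in the 3 12q libraries and at most 0.835 FPKM elsewhere. PECAM1 was at most 0.958 FPKM. EPCAM and CDH1, epithelial genes, reached 2.38 and 1.38 FPKM in the NextSeq 12q DOX library. XIST was at 3.38 to 4.17 FPKM with No DOX, at 22.0 to 99.0 FPKM with DOX and at 0.0705 FPKM in the 1p vector library. Between 10975 and 11399 genes per library had an FPKM of at least 1, and the depth of the libraries is unknown. The HiSeq 1p DOX and 1p vector libraries stood low over all genes tested, with medians of 3.12 and 3.03 on the log2(FPKM + 1) scale against 3.25 to 3.39 in the other HiSeq libraries.

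All 4 members were expressed in every library, well inside the range of active genes. Over the 6 HiSeq libraries, NRAS ran from 9.08 to 21.8 FPKM, HRAS from 12.3 to 40.9, RRAS from 13.5 to 35.9 and RRAS2 from 9.60 to 37.7. Over the 4 NextSeq libraries, NRAS ran from 25.6 to 32.7 FPKM, HRAS from 19.4 to 28.4, RRAS from 15.1 to 21.0 and RRAS2 from 14.7 to 36.6. RRAS2 thus had the widest range in both tables, with its highest library at 3.93 times the lowest in the HiSeq and 2.49 times in the NextSeq table. Its SD on the log2 scale over the NextSeq libraries was 0.67, above that of 95.5 % of genes tested, while that of NRAS was 0.15, above that of 44.2 %. Over the HiSeq libraries the SD was above that of 85.0 % of genes for NRAS and 95.2 % for RRAS2, with HRAS and RRAS between them.

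**Figure D1:**
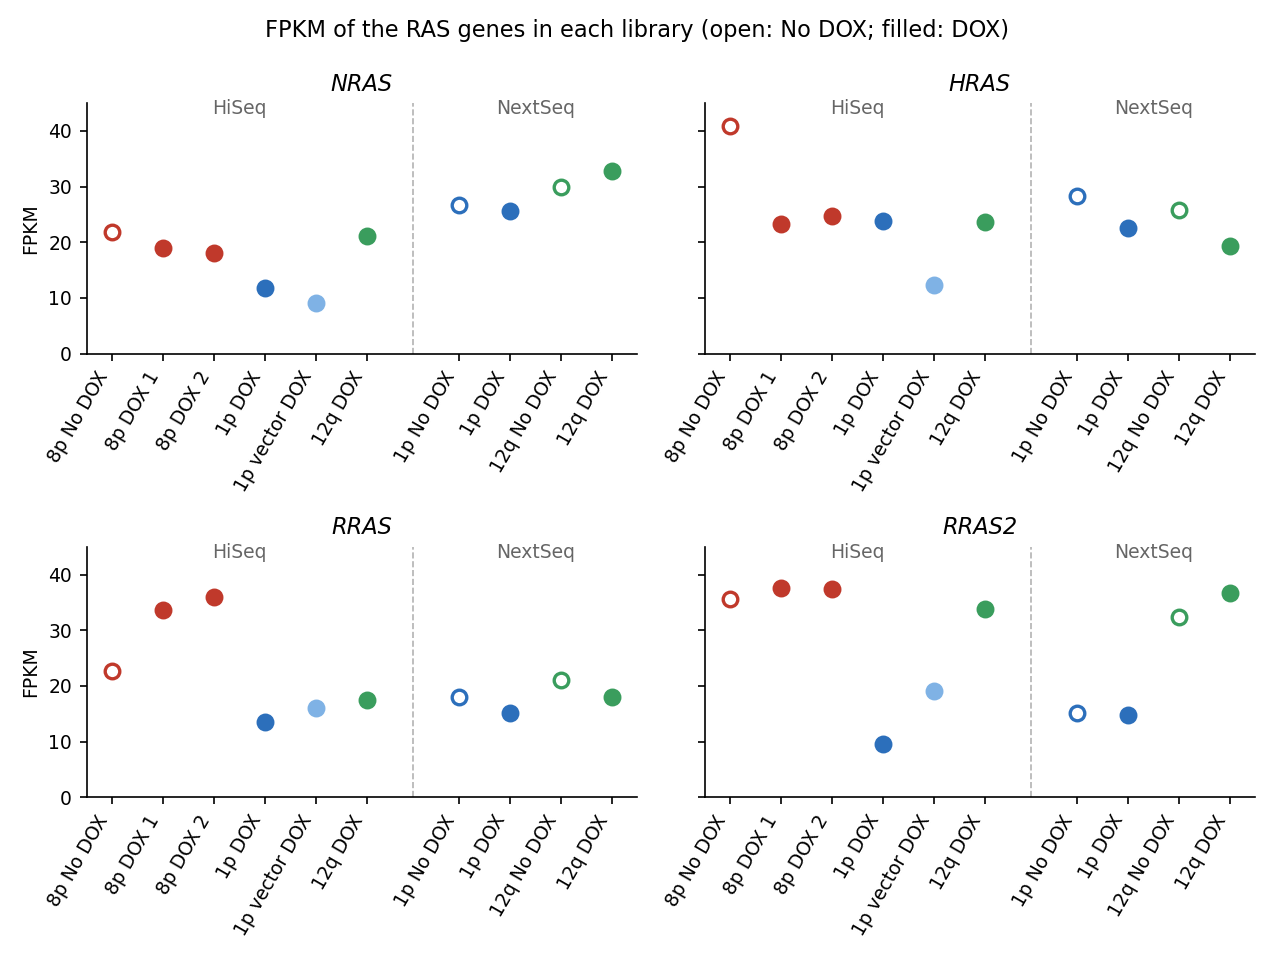
FPKM of NRAS, HRAS, RRAS and RRAS2 (y axis, FPKM) in each of the 6 HiSeq and 4 NextSeq libraries (x axis), with open points for No DOX and filled points for DOX, and a colour for each clone. RRAS2 is at 9.60 to 19.1 FPKM in the 1p and 1p vector libraries and at 32.3 to 37.7 FPKM in all 8p and 12q libraries, and the HRAS value of the 8p No DOX library, 40.9 FPKM, stands above the other HRAS points.

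FPKM is corrected for transcript length, so the members can be ranked within a library. By mean log2(FPKM + 1), the HiSeq order was RRAS2, HRAS, RRAS and NRAS, and the NextSeq order was NRAS, HRAS, RRAS2 and RRAS. Neighbours in these orders were not separated beyond the spread between libraries. In the HiSeq table, RRAS2 was above HRAS in 4 of 6 libraries (mean log2 difference 0.15 ± 0.75 SD; exact two-sided sign-flip permutation test, p = 0.688), HRAS above RRAS in 3 of 6 (0.10 ± 0.64; exact p = 0.75) and RRAS above NRAS in 5 of 6 (0.41 ± 0.49; exact p = 0.156). The values adjusted over the 3 pairs of this table were 0.75, 0.75 and 0.469, and the smallest p that 6 libraries allow is 0.0312. In the NextSeq table NRAS was above HRAS in 3 of 4 libraries, HRAS above RRAS2 in 2 of 4 and RRAS2 above RRAS in 2 of 4, with exact permutation p-values of 0.25, 1 and 0.5, adjusted to 0.75, 1 and 0.75, where 2 of 16 sign patterns is the smallest share that 4 libraries allow, above the threshold.

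Both the 4-gene sum and its make-up changed between libraries. The sum ran from 56.4 to 121 FPKM over the HiSeq libraries and from 77.9 to 109 FPKM over the NextSeq libraries. RRAS2 was the most abundant member in 6 of the 10 libraries, all from the 8p, 12q or 1p vector cells, and the least abundant in the 3 libraries of the 1p clone with XIST. It made 16.4 % of the sum in the HiSeq 1p DOX library and 17.1 and 18.9 % in the NextSeq 1p libraries, but 29.5 to 35.2 % in the other 7 libraries. NRAS made 15.6 to 22.1 % of the sum in the HiSeq libraries and 27.4 to 32.8 % in the NextSeq libraries. These NRAS ranges did not overlap. In the lines present in both tables, the share was 20.0 % (HiSeq) and 32.8 % (NextSeq) for 1p DOX. For 12q DOX it was 22.1 and 30.7 %. The tables come from separate runs with reads of 50 and 76 bp. These libraries also carry different replicate names, so run and culture cannot be told apart there.

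**Figure D2:**
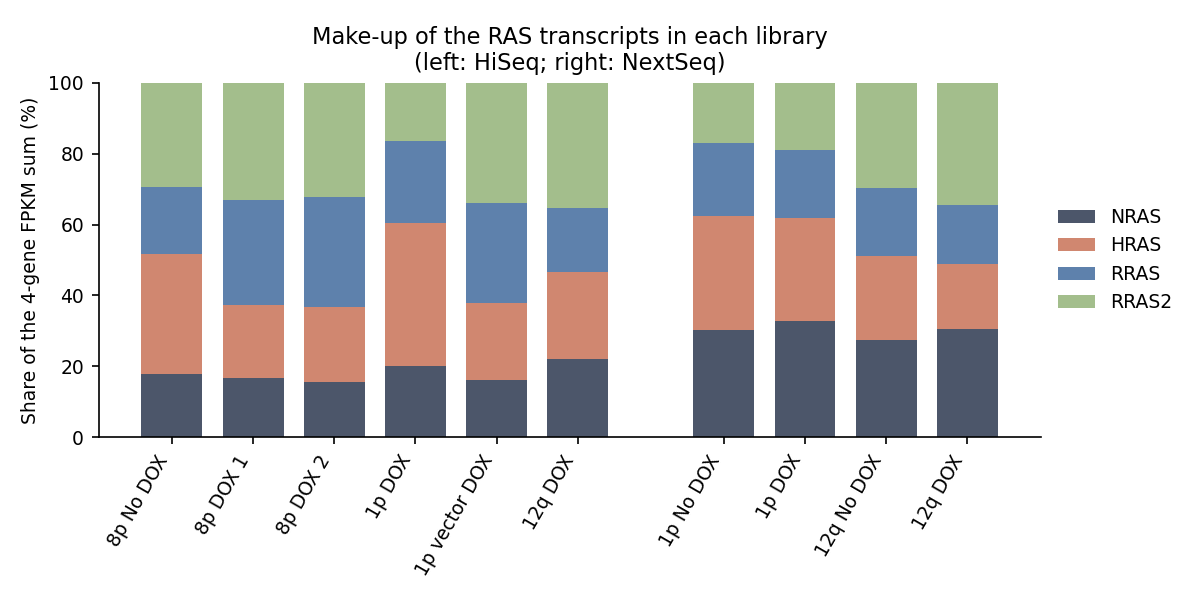
Share of each member in the summed FPKM of the 4 genes (y axis, %) in each library (x axis), HiSeq on the left and NextSeq on the right. RRAS2 takes 16.4 to 18.9 % of the bar in the 3 libraries of the 1p clone with XIST and 29.5 to 35.2 % in the other 7.

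RRAS2 carried the clone difference that passed the test. With 12q set against 1p in the NextSeq table, the 12q libraries had 32.3 FPKM with No DOX and 36.6 FPKM with DOX, and the 1p libraries had 15.1 and 14.7 FPKM. The groups did not overlap, and the difference was 1.15 on the log2(FPKM + 1) scale (SE 0.08, 95 % interval 0.94 to 1.37, adjusted p = 0.00371, n = 2 and 2), or 2.23-fold on this scale. RRAS2 was the 1 member of 4 called, where 32.8 % of all genes tested were called. In the HiSeq table the 12q DOX library, at 33.8 FPKM, was 3.52 times the 1p DOX library, at 9.60 FPKM, and 1.77 times the 1p vector library, at 19.1 FPKM, with 1 library each and no test. Thus 12q had more RRAS2 than 1p in both tables, but the empty-vector line on the same site had 1.99 times the RRAS2 of the 1p DOX library. CDH5 differed along with RRAS2 in the NextSeq table, at 0.0447 and 0.0545 FPKM in the 1p libraries and 5.70 and 7.06 FPKM in 12q. The HiSeq 8p libraries, however, had 35.7 to 37.7 FPKM of RRAS2 with 0.673 to 0.835 FPKM of CDH5. The 7 other-cell markers, CDH5 included, summed to 0.832 to 1.10 FPKM in the NextSeq 1p libraries. In 12q they summed to 7.73 FPKM with No DOX, of which CDH5 made 7.06 FPKM, and to more with DOX. Their part in the RRAS2 difference was not tested. In bulk samples, fewer cells with a transcript and less of it per cell cannot be told apart.

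The other members differed less between 12q and 1p. NRAS had 29.8 and 32.7 FPKM in 12q (No DOX and DOX) and 26.8 and 25.6 FPKM in 1p, which did not overlap, yet the difference of 0.25 (SE 0.08) did not pass (adjusted p = 0.0693). RRAS had 21.0 and 18.0 FPKM in 12q and 18.1 and 15.1 FPKM in 1p, and the groups overlapped (0.22, SE 0.07, adjusted p = 0.064). It passed when tested among genes averaging at least 5 FPKM (adjusted p = 0.048). HRAS had 25.8 and 19.4 FPKM in 12q and 28.4 and 22.5 FPKM in 1p, also overlapping (-0.17, SE 0.07, adjusted p = 0.115).

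**Figure D3:**
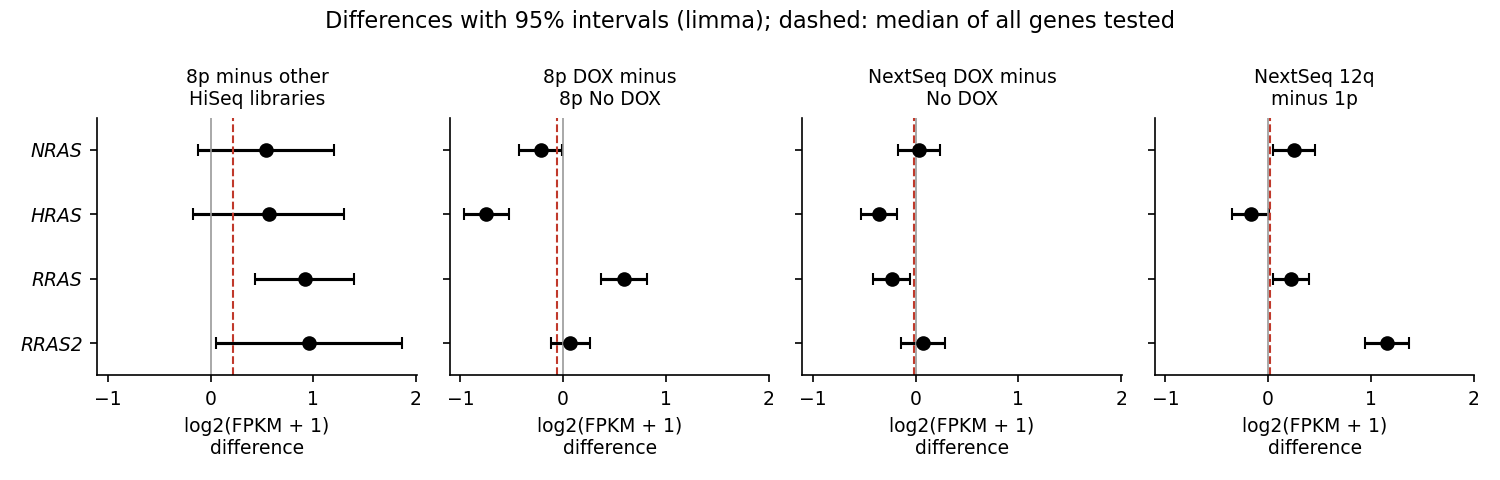
Difference of each member in the 4 comparisons (x axis, log2(FPKM + 1), first group minus second), with points for the limma estimate, bars for its 95 % interval, a grey line at 0 and a dashed line at the median of all genes tested. RRAS2 lies at 1.15 in 12q against 1p, HRAS at -0.75 and RRAS at 0.59 in the 8p DOX comparison, and in 8p against the other HiSeq libraries all members lie to the right of 0, as does the median of all genes, 0.22.

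The 3 8p libraries were then set against the 3 other HiSeq libraries, which came from 3 different lines. The 8p libraries share a site and mix No DOX and DOX. Neither side of this comparison therefore holds repeats of the same condition, and its p-values measure the spread between these libraries. All members were higher in the 8p libraries on average, and 0 of 4 passed the test, where 5.17 % of all genes tested were called. The median of all genes was itself 0.22 higher in 8p on the log2 scale, so the difference of each member is also given relative to it. RRAS had 22.7, 33.7 and 35.9 FPKM in 8p (No DOX, DOX 1, DOX 2) against 13.5, 16.0 and 17.4 FPKM (1p DOX, 1p vector, 12q DOX). These groups did not overlap, and the difference of 0.92 (SE 0.20, 0.70 relative to the median) stood just outside the threshold (adjusted p = 0.0502). It passed without the 8p No DOX library, with a difference of 1.11 (adjusted p = 0.0441), without the 12q library (0.99, adjusted p = 0.0437) and among genes averaging at least 5 FPKM (adjusted p = 0.0429), and it did not with libraries shifted to the same median (adjusted p = 0.121). RRAS passed in 4 of 13 settings, of which that without 8p No DOX and that with DOX libraries only are the same fit. Over the 13 settings its adjusted p ran from 0.0429 to 0.229.

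RRAS2 did not overlap either, with 35.7, 37.7 and 37.5 FPKM in 8p against 9.60, 19.1 and 33.8 FPKM in 1p DOX, 1p vector and 12q DOX. Its difference of 0.96 (SE 0.39, 0.75 relative to the median) had an adjusted p of 0.154, and the 12q library lay next to the 8p values. Without 12q it was 1.38 (adjusted p = 0.0331), and without 1p DOX it was 0.52 (adjusted p = 0.254). NRAS, with 21.8, 19.0 and 18.1 FPKM in 8p against 11.7, 9.08 and 21.2 FPKM, overlapped through the same library. Its difference was 0.54 (SE 0.28, 0.32 relative to the median, adjusted p = 0.246). It was 0.86 without 12q (adjusted p = 0.031) and 0.29 without 1p vector (adjusted p = 0.495). HRAS had 40.9, 23.3 and 24.7 FPKM in 8p against 23.7, 12.3 and 23.7 FPKM, which overlapped, with a difference of 0.56 (SE 0.31, 0.35 relative to the median, adjusted p = 0.268), which was 0.27 without 1p vector and 0.32 without 8p No DOX. The HRAS value of the 1p vector library was 0.518 times that of the 1p DOX library.

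In the 8p clone HRAS was lower and RRAS higher with DOX. HRAS went from 40.9 FPKM (No DOX) to 23.3 and 24.7 FPKM (DOX), and fell by 0.75 on the log2(FPKM + 1) scale (SE 0.08, 95 % interval -0.96 to -0.53, adjusted p = 0.0162). RRAS went from 22.7 FPKM to 33.7 and 35.9 FPKM, and rose by 0.59 (SE 0.08, 95 % interval 0.37 to 0.81, adjusted p = 0.0188). With DOX, HRAS went from the first to the third place among the 4 members and RRAS from the third to the second. Thus 2 of 4 members were called, where 31.1 % of all genes tested were called. The fit has 1 No DOX library and 1 residual degree of freedom, and takes the spread of the 2 DOX libraries for that library too. The methods name 2 8p clones with DOX, and which of them gave the No DOX library is not stated.

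NRAS was at 21.8 FPKM without and 19.0 and 18.1 FPKM with DOX (-0.22, SE 0.08, adjusted p = 0.0978), and RRAS2 had 35.7 FPKM against 37.7 and 37.5 FPKM (0.07, SE 0.07, adjusted p = 0.472). The HRAS and RRAS calls rest on the lone No DOX library. With the 3 other HiSeq libraries as baseline, RRAS in the 8p DOX libraries was higher by 1.11 on the log2 scale and HRAS by 0.32, so that the sign of HRAS turned. With the spread among those 3 libraries in the fit, the adjusted p was 0.0441 for RRAS and 0.546 for HRAS. The 8p DOX values of HRAS lay close to the 23.7 FPKM of the 1p and 12q DOX libraries, and the 1p vector library, at 12.3 FPKM, lowered the baseline. When no filter on low values was used, both calls were lost (adjusted p = 0.116 for each).

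In the NextSeq table the DOX change common to both clones was tested. HRAS had 28.4 FPKM (1p) and 25.8 FPKM (12q) without DOX, and with DOX these were 22.5 and 19.4 FPKM. RRAS had 18.1 and 21.0 FPKM without DOX, and 15.1 and 18.0 FPKM with it. Both were lower with DOX in both clones. RRAS in 12q with DOX, at 18.0 FPKM, lay close to the 18.1 FPKM of 1p without DOX. The differences were -0.36 for HRAS (95 % interval -0.53 to -0.18) and -0.23 for RRAS (-0.41 to -0.05), with an adjusted p of 0.702 for each. None of the 4 members was called by limma (0 of 4), where 0.00877 % of all genes tested were called, that is 1 of 11397, and 746 genes had an unadjusted p under 0.05, HRAS and RRAS among them. NRAS (0.03, SE 0.08) and RRAS2 (0.07, SE 0.08) had adjusted p-values of 0.928 and 0.856.

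**Figure D4:**
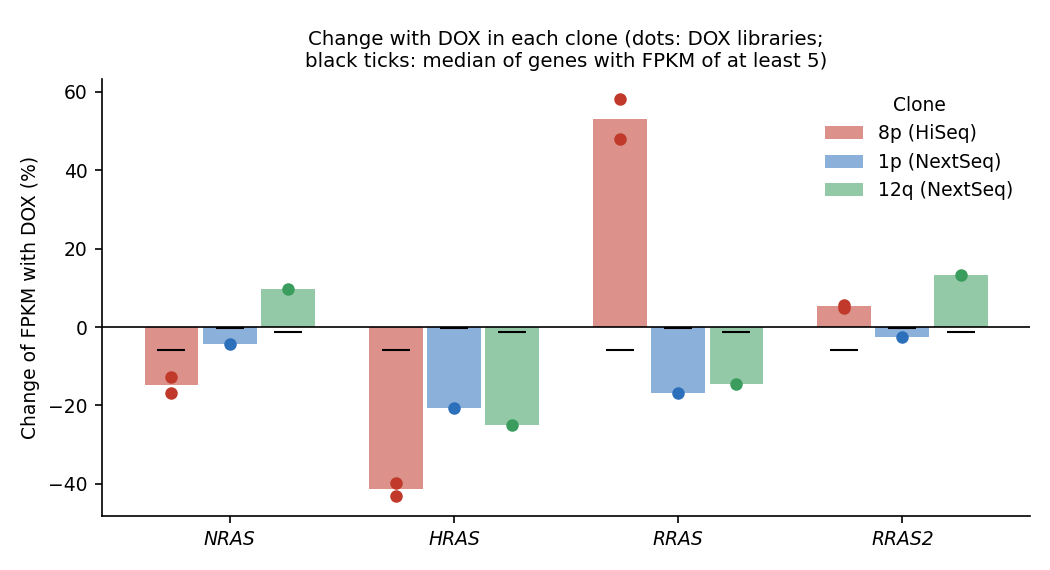
Change of FPKM with DOX relative to No DOX (y axis, %) for each member (x axis) in the 8p, 1p and 12q clones, with bars for the mean of the DOX libraries, dots for each DOX library and black ticks for the median of genes averaging at least 5 FPKM. HRAS is lower in all 3 clones, by 41.4, 20.6 and 25.0 %, and RRAS is at 53.1 % in 8p but -16.7 and -14.6 % in 1p and 12q.

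Clone by clone and without a pseudocount, HRAS had the same direction with DOX in all 3 clones. It was lower by 41.4 % in 8p (changes of -43.1 and -39.7 % in the separate DOX libraries), by 20.6 % in 1p and by 25.0 % in 12q. The median change of all genes averaging at least 5 FPKM was -5.77, -0.296 and -1.19 % in these clones, and 3.57, 2.32 and 6.19 % of genes had a lower change than HRAS. RRAS differed between the clones, at 53.1 % in 8p (48.1 and 58.1 %) and -16.7 and -14.6 % in 1p and 12q. NRAS changed by -14.7, -4.41 and 9.63 % in 8p, 1p and 12q, and RRAS2 by 5.24, -2.62 and 13.2 %. The 1p libraries carry different replicate names in the labels, so they may not be the same clone. For 1p and 12q there was 1 library per condition, so no spread stands behind these percentages, and the SD of the log2 values of the 8p DOX libraries was at most 0.07 for every member.

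NRAS lies on the arm that held the transgene in the 1p clone, in which the integration lies in MACF1 (chromosome 1, 39319676 to 39725397), 75.5 Mb away. HT1080 has a translocation of chromosome 1 between MACF1 and NRAS, and it is not known which homologue holds the transgene, so NRAS may not be on the same chromosome as XIST. Its change with DOX there, -4.41 %, was close to the median of -3.11 % over the 438 genes of the short arm of chromosome 1 averaging at least 5 FPKM, of which 41.8 % had a lower change. Off chromosome 1 the median in that clone was -0.159 %. In the 12q clone the medians were -0.983 % on the same arm and -1.36 % on other chromosomes.

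The genes around each member were examined next, within 1 Mb and averaging at least 5 FPKM in the HiSeq table. Around RRAS2 there were 4 such genes, with a median of 0.10 in 12q against 1p, where RRAS2 itself was at 1.15. The adjacent COPB1, a coatomer subunit, was higher in 12q by 0.45 (adjusted p = 0.0114), and FAR1, a fatty acyl-CoA reductase on the other side, was at -0.22 (adjusted p = 0.0674). Around HRAS, 20 of the 21 genes tested in the NextSeq DOX comparison lay below the median of all genes, and their median was -0.18 against -0.01 over all genes, with 0 called. In the 8p DOX comparison their median was -0.11, with 2 called higher and 3 lower of 22, where 31.1 % of all genes were called.

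Around RRAS, 4 of 34 genes lay above the median of all genes in the NextSeq DOX comparison, and their median was -0.14. In 8p, where RRAS rose, the median of its 40 neighbours was -0.07, with 3 called higher and 5 lower, also below that share. SCAF1, next to RRAS, was lower there (-0.39, adjusted p = 0.0293). Around NRAS, 9 genes had a median of -0.02 with DOX in 8p, with 2 called in each direction, or 4 of 9, where 31.1 % of all genes were called.

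**Figure D5:**
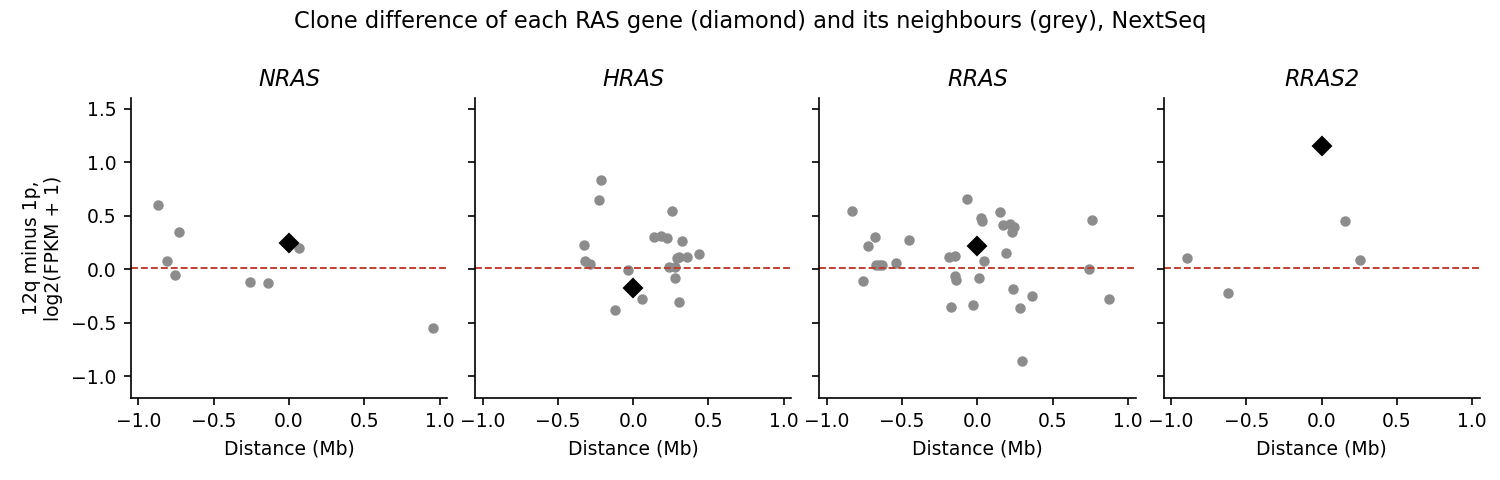
Difference of 12q minus 1p in the NextSeq table (y axis, log2(FPKM + 1)) for each member (diamond) and the genes within 1 Mb (grey points) by distance between gene centres (x axis, Mb), with a dashed line at the median of all genes. Differences under -2 are not drawn. RRAS2 at 1.15 lies above its 4 neighbours.

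Regulators and effectors of RAS were counted as lists. The shares of all genes called, 31.1 % with DOX in 8p (1286 higher and 2251 lower), 32.8 % in 12q against 1p and 5.17 % in 8p against the others, are the background for each count, and each call for DOX in 8p rests on the lone No DOX library. The list of GTPase activators, which turn RAS proteins off, also held the SPRED genes, which are not activators themselves. Of its 11 genes tested, 5 rose and 0 fell with DOX in 8p (31.1 % of all genes called), with a list median of 0.22 against -0.06 over all genes. SPRED3, of a family that recruits the activator NF1, went from 1.28 FPKM with No DOX to 2.78 and 3.05 FPKM (0.78, adjusted p = 0.0162) and RASA4 from 2.16 to 3.86 and 3.59 FPKM (0.58, adjusted p = 0.0192), the latter a gene with near-identical copies whose reads may be split. RASA3 (0.50, adjusted p = 0.0288) and RASA1 (0.45, adjusted p = 0.0298) were among the 5. In the NextSeq DOX comparison 0 of 10 were called, and the median was 0.01. With 12q against 1p, 2 of 10 were higher and 1 lower. RASA1 had 22.6 and 22.3 FPKM in 12q and 43.3 and 47.1 FPKM in 1p (-0.98, adjusted p = 0.0038), while NF1, the neurofibromin gene, was higher (0.31, adjusted p = 0.0454).

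Enzymes that process RAS proteins and take part in their turnover moved in both directions. With DOX in 8p, 3 of 14 rose and 3 fell, where 31.1 % of all genes were called. ICMT, which methylates the farnesylated end, went from 32.0 FPKM to 18.7 and 18.3 FPKM (-0.76, adjusted p = 0.0162), and RCE1, the protease acting before it, fell by 0.37 (adjusted p = 0.0331). FNTB, a farnesyltransferase subunit, fell by 0.85 (adjusted p = 0.0288), whereas ZDHHC9, a palmitoyltransferase of RAS proteins, rose by 0.38 (adjusted p = 0.0322). With 12q against 1p, 4 of 13 were higher and 2 lower (32.8 % of all genes called), ICMT again among the lower ones (-0.69, adjusted p = 0.0077), and LYPLA2 (0.49), ABHD17C (0.38) and PDE6D (0.33) among the higher ones. In the NextSeq DOX comparison 0 of 13 were called, and the highest expressed were LYPLA1 (0.06) and LYPLA2 (-0.26).

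Of the 21 effectors tested, 3 rose and 2 fell with DOX in 8p, a share below the 31.1 % of all genes called. RGL2, an exchange factor of RAL, rose by 0.44 (adjusted p = 0.0271) and PIK3CD, a catalytic phosphoinositide 3-kinase subunit, by 0.34 (adjusted p = 0.0413), while RASSF1, a protein with a RAS-association domain, fell by 0.46 (adjusted p = 0.0231). With 12q against 1p, 5 were higher and 2 lower, a share close to the 32.8 % of all genes. RGL2 (0.42), the RAC exchange factor TIAM1 (0.89) and KSR1 (0.95), a scaffold of the RAF pathway, were higher, the latter pair at 0.764 to 2.96 FPKM, and RIN1 was lower (-0.46). In the NextSeq DOX comparison 0 of 21 were called.

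Among 9 tested relatives of RAS, RALA, the GTPase downstream of the RAL exchange factors, was the gene called in 8p against the other HiSeq libraries (5.17 % of all genes called, with a median difference of 0.22), with 43.2, 43.6 and 40.3 FPKM against 24.4, 22.2 and 28.0 FPKM (0.75, adjusted p = 0.0364). With DOX in 8p 1 of 9 was called, against 31.1 % of all genes, namely RAP2A, which fell by 0.37 (adjusted p = 0.0365). With 12q against 1p (32.8 % of all genes called) 2 were higher, RIT1 (0.67) and RAP1A (0.36), and 3 lower, RAP2C (-0.55) and RALA (-0.28) among them. In the NextSeq DOX comparison 0 of 9 were called, with RHEB at 0.05 and RAP1B at 0.03. Of the exchange factors, 4 were tested in the HiSeq table and 2 in the NextSeq table, and 0 were called in the 4 comparisons. SOS1 and SOS2, which load GTP onto RAS, had differences of 0.17 and 0.54 in 8p against the others, -0.14 and -0.01 with DOX in 8p, 0.06 for each with DOX in the NextSeq table, and 0.07 and 0.33 in 12q against 1p. In 8p against the other HiSeq libraries no GTPase activator, processing gene or effector was called (0 of 11, 0 of 14 and 0 of 21), and the highest expressed of each were RASA1 (0.49) and RASA3 (-0.18), ABHD17A (0.10) and LYPLA2 (0.40), and MAP2K2 (0.47) and MAP2K1 (0.33).

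The profile of each member over the 10 libraries was set beside those of 6905 genes averaging at least 5 FPKM in both tables, after the mean of each gene in each table was subtracted. The points share libraries, and the low 1p libraries of the HiSeq table lower many genes at once, so the values of r are descriptions. NRAS was most like CCDC43 (r = 0.995), GOLGA7 (r = 0.993) and RPF1 (r = 0.984). HRAS was most like AURKAIP1 (r = 0.983), NFKBIB (r = 0.975) and SLC35A4 (r = 0.974), RRAS most like ERCC2 (r = 0.983), RFNG (r = 0.979) and RHBDF2 (r = 0.976), and RRAS2 most like C11orf31 (r = 0.991), NAMPT (r = 0.991) and ADD3 (r = 0.987). Between members, r ran from 0.20 for HRAS and RRAS2 to 0.76 for NRAS and RRAS2. RRAS2 ranked 1570 among the 6905 genes by likeness to NRAS, and HRAS ranked 4130 by likeness to RRAS2. The genes named above were picked for the highest r, so values lower than theirs follow from that choice.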

How the data were processed

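Per the labels, hg18, TopHat, Bowtie and Cufflinks were used, and the authors deposited the resulting FPKM values (fragments scaled for transcript length and library size), with 1 table for each sequencing run. The versions and annotation are not given in the sources used here, and read counts, and so depth, cannot be recovered. PolyA libraries were strand-specific. The 6 ChIP-seq libraries were not used here. Lines with a repeated symbol (739 HiSeq, 882 NextSeq), lines whose symbol had become a date (22 per table) and 2 NextSeq lines with no value were dropped. Starts in the deposited table were raised by 1 to count from 1.

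Differences were fitted on log2(FPKM + 1), which understates changes of low genes, with limma 3.58.1 in R 4.3.3 (lmFit, eBayes with trend, two-sided, Benjamini-Hochberg over all genes averaging at least 1 FPKM, threshold 0.05), within each table. The 8p DOX contrast used means of 5 groups, and the NextSeq fit used clone and DOX as terms. The order of members used exact sign-flip permutation. Other values were computed in Python 3.11.15, and the scripts were tested on simulated data. The p-values measure the spread between these libraries, which may be technical. Where groups are said not to overlap, the share of all genes that do so is not given, so this is description only. The members and gene lists were chosen with earlier results of these data known. Named list genes were the 4 or fewer with the lowest adjusted p among those called or, with none called, the 2 with the highest mean FPKM. Some genes that this rule takes are not reported here. Promoter letters came from RefSeq. Symbols were matched through older names, and all 71 list genes were found in both tables. The alternatives were another pseudocount (0.1), FPKM filters, scaling to the same median, no trend, other baseline libraries and leaving out libraries.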

Additional observations from a re-analysis of the deposited data

Results flagged for a closer look

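For 3 members the change with DOX had opposite directions in different clones, in every DOX library of the clones compared. The differences between clones were not tested, since each clone had 1 No DOX library, and 8p was sequenced in another run than 1p and 12q. The log2 ratio of RRAS with DOX over No DOX was higher in the 8p clone than in the 1p clone by 0.88 and than in the 12q clone by 0.84. The ratio of NRAS in the 12q clone was above that in the 8p clone by 0.36 and above that in the 1p clone by 0.20. The ratio of RRAS2 in the 1p clone, the lowest of the 3, was below that in the 8p clone by a difference of 0.11 and below that in the 12q clone by a difference of 0.22. HRAS had the same direction in all 3 clones.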

How the results depend on the processing

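The number of genes called in 8p against the other HiSeq libraries was 587. It was 320 with no filter and 160 with DOX libraries only, and from 29 to 1737 when a library was left out, the lowest without 8p DOX 1 (40 without 8p DOX 2, 160 without 8p No DOX, 231 without 1p DOX, 319 without 1p vector) and the highest without 12q. For DOX in 8p it was 3537, against 15 with no filter and 7209 with the 3 other HiSeq libraries as baseline. For DOX in the NextSeq table it was 1, against 0 with no filter and 2 with no trend, and for 12q against 1p it was 3742, against 1971 with no filter. Libraries shifted to the same median changed the split of calls from 466 higher and 121 lower to 192 and 255 in 8p against the others, and from 1286 and 2251 to 2169 and 2080 for DOX in 8p. The causes of these moves were not tested.

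With the 3 other HiSeq libraries as baseline, the 8p DOX values reversed for HRAS (0.32) and NRAS (0.46). That fit takes no spread from the baseline lines. With their spread, as with DOX libraries only, the same differences had an adjusted p of 0.546 for HRAS, 0.42 for NRAS and 0.251 for RRAS2 (0.99). RRAS2 in 12q against 1p passed in all 5 alternatives (adjusted p 0.00141 to 0.0315). HRAS and RRAS with DOX in 8p passed in all fits on the 8p No DOX baseline but that with no filter, and no member passed in the NextSeq DOX comparison under any alternative. With libraries shifted to the same median, the log2 DOX ratios became -0.16 (NRAS, 8p), 0.20 (NRAS, 12q), -0.70 (HRAS, 8p), -0.35 (HRAS, 12q), 0.68 (RRAS, 8p), 0.14 (RRAS2, 8p), -0.030 (RRAS2, 1p) and 0.25 (RRAS2, 12q), all with the sign kept. Leaving out either 8p DOX library, which leaves no residual degree of freedom, kept all signs for DOX in 8p. No pair in the order of the members passed under any alternative, but with the 8p libraries averaged, with a library left out or with the 4 NextSeq libraries none could. No pairing by replicate number was possible because fewer than 2 replicate numbers recur between compared groups. The NextSeq fit had the clone as a term, which pairs the DOX and No DOX libraries by clone. With FPKM only, the precision from depth is unknown.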
